A study of Homo sapiens with 4 samples.

Results

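The BrdU peaks described here are those that lay in the deepest stacks of the peak list. Peaks that overlapped or touched were merged into sites, and the depth of a site was how many peaks lay over its most covered base. The members were chosen by this measured depth: the 349 sites on chromosomes 1 to 22 with a depth of 4 or 5 were kept, of 25287 autosomal sites in all (1.38%). Depth was 4 at 238 of them and 5 at 111, and together they held 1770 of the 33295 peaks in the list. Because the number of stacked peaks chose these sites, their depth and their width are given as a description only. The sites were compared with the 20085 autosomal sites of depth 1, at which no peak overlapped another.

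The peaks came from BrdU-Seq in BJ-hTERT cells, human foreskin fibroblasts immortalized with telomerase, a single cell line, which were synchronized by serum starvation and release. Peaks were called against input DNA at 16, 19, 22, 24 and 28 h after release, in 2 repeats. The list collects the peaks of all time points and names neither the time point nor the repeat, and the way in which peaks of both repeats were combined is not given in the sources used here, so no spread between repeats could be computed and the read depth behind a peak is unknown. The 4 ChIP-Seq samples of the series, RNAPII and PCNA at 14 and 16 h, were not analysed here. No base of the genome lay under more than 5 peaks, and peaks had been called at 5 time points. Which time points a stack holds cannot be read from the list.

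BrdU is a thymidine analogue that cells build into newly copied DNA, and the study took a local excess of it as a place where replication forks slow or pause. Tandem arrays are stretches in which the same unit follows itself head to tail. Those with units of a few bases are called microsatellites and those with longer units minisatellites, and minisatellites of the human genome are known to lie often near chromosome ends and to vary in copy number between people.

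Sequences of the sites show what many of them share. The first set gives 1 copy of the repeat unit of a pair of the most self-similar arrays among the sites, both on the + strand of hg38, and at each of them the next 2 copies were identical to the one shown:
chr16:85972626-85972688: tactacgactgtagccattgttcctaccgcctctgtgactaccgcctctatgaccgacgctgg
chr12:2539243-2539283, in an intron of CACNA1C: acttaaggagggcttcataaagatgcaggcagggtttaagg

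Among the widest arrays, 3 had short units. They are shown for their simple sequence, again on the + strand, and the next 2 copies were identical at each:
chr12:131580134-131580150: actgtgtctgtctctgc
chr1:201256274-201256291: agtgagatggagtgatgg
chr9:136581460-136581471: cactcattcact

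Arrays in coding sequence of MUC3A and IGFN1 had units of 51 and 108 bp, both multiples of 3. Successive copies in exon 2 of MUC3A and in exon 12 of IGFN1 are shown on the + strand, and capitals mark bases that differ from the copy before:
MUC3A, chr7:100958672-100958722: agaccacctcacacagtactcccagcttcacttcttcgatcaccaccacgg
MUC3A, chr7:100958723-100958773: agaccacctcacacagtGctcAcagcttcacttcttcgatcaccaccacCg
MUC3A, chr7:100958774-100958824: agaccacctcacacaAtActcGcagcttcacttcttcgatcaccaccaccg
IGFN1, chr1:201210641-201210748: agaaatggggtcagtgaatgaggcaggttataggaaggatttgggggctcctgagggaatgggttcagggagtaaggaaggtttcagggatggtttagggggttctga
IGFN1, chr1:201210749-201210856: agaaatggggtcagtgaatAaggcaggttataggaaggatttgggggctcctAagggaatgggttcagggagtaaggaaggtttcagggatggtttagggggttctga

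Other sites were not arrays by the definition used here but had bases unevenly split between the strands. Of the most uneven such sites 3 are shown, with the site of chromosome 11 that held the most peaks, each by 120 bp around the midpoint of the deepest stretch, on the + strand, with the rare base in capitals. That base is C in the first pair and G in the other pair:
chr2:3530826-3530945: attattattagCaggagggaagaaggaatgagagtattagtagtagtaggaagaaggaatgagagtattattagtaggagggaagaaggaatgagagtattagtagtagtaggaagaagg
chr19:7363519-7363638, in an intron of ARHGEF18: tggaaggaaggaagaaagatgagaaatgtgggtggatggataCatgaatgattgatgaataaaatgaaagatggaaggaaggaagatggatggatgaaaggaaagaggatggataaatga
chr10:122725146-122725265: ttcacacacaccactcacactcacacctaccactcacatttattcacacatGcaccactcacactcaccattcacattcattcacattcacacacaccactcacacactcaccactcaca
chr11:2047770-2047889: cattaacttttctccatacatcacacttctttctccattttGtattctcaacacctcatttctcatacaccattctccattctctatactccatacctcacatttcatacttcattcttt

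Peaks at most of these sites were nested. In 236 of the 349 sites the number of peaks equalled the depth, so that every peak of the site covered the deepest stretch. The widest peak alone spanned at least 90% of the site in 302 sites. The deepest stretch had a median length of 243 bp, close to the median width of a depth 1 site, 257 bp, whereas the whole sites had a median width of 811 bp. Around the midpoint of the deepest stretch the mean number of peaks fell from 5 to 2.39 at 250 bp and to 0.932 at 500 bp in sites of depth 5. In sites of depth 4 it fell from 4 to 1.81 and 0.765 at the same distances. Single sites held up to 23 peaks, but only 5 of the 349 held more than 9.

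**Figure D1:**
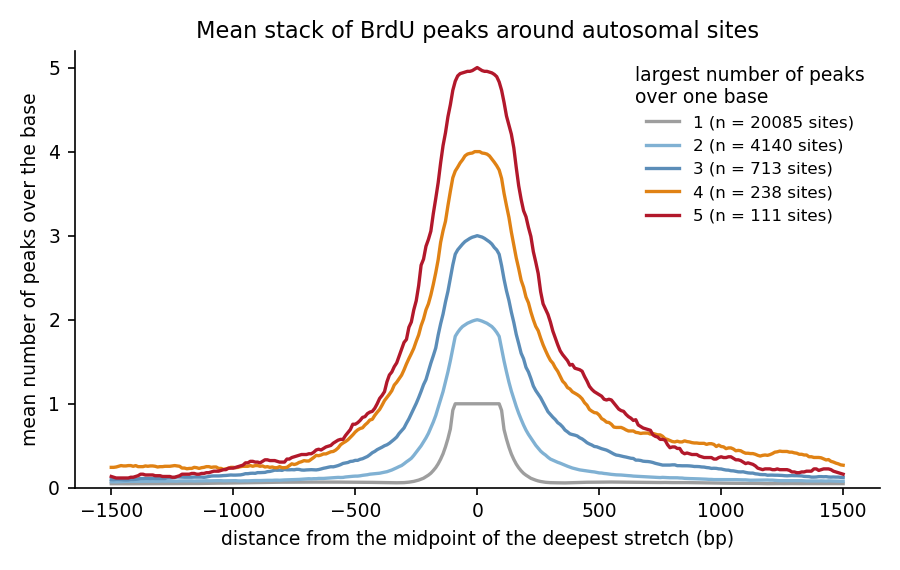
Mean number of BrdU peaks over each base (vertical axis) against the distance in bp from the midpoint of the deepest stretch (horizontal axis), for autosomal sites of each stack depth, with the number of sites in the legend. All curves are centred and narrow, and those of depth 4 and 5 are broader at their foot than that of depth 1, at 1.81 and 2.39 peaks 250 bp from the midpoint against 0.0830.

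Sites just below and just above the limit are set side by side. Median width was 615 bp at the 713 sites of depth 3, 807 bp at depth 4 and 825 bp at depth 5. The share of tandem arrays was 24.4%, 43.7% and 47.7% at these depths. Width grows when stacked peaks are merged, and no test was made of either step.

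Tandem arrays made up a large share of the deep stacks. A site was called an array when its sequence, shifted against itself by up to 120 bp, matched at 70% or more of its positions. By this definition 157 of the 349 sites were arrays, or 44.99% (95% Wilson interval 39.8 to 50.2%). Among all autosomal sites 5.75% were arrays. At depth 1 the share was 3.83% (769 of 20085 sites), which is lower by 41.2 percentage points (95% Newcombe interval of the difference 36.01 to 46.4). Intervals here cover the counting error only, and neighbouring sites are not independent of each other.

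The share of arrays was higher at each step of depth, from 3.83% at depth 1 through 8.57% at depth 2 and 24.4% at depth 3 to 43.7% and 47.7%. Intervals of depth 4 (37.5 to 50.0%) and depth 5 (38.7 to 57.0%) overlapped. Read over any single peak of the site instead of over the whole site, arrays were found at 67.0% of the deep stacks and at 6.88% of all autosomal sites. This reading gives a deep stack at least 4 peaks in which to pass and a depth 1 site only 1. The difference from depth 1 was also seen among sites of like width. In sites of 300 to 500 bp, 38.2% of the deep stacks and 3.69% of depth 1 sites were arrays. In those of 500 to 1000 bp the shares were 42.8% and 4.92%. In sites of 1000 bp or more they were 50.8% of 128 deep stacks and 14.8% of 27 depth 1 sites (5.92 to 32.5%).

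Repeat units in the arrays were mostly of minisatellite length. The median unit was 30 bp in the 157 arrays of depth 4 or 5 and 42 bp in the 769 of depth 1. Units of 61 to 120 bp were found in 14.6% of the deep arrays (9.96 to 21.02%) and in 34.3% of those of depth 1 (31.1 to 37.8%). Units of 7 to 20 bp went the other way, with 22.9% (17.0 to 30.1%) against 14.2% (11.9 to 16.8%). Arrays of depth 2 and 3 were close to the deep ones here, at 20.8% (16.9 to 25.4%) and 21.3% (15.8 to 27.9%). Units of 1 to 6 bp, the range of microsatellites, made up 14.6% and 14.0%, and the intervals overlapped. Site width divided by unit length had a median of 30.8 in the deep arrays and 6.78 in those of depth 1. This ratio grows with the width of the site, and copies themselves were not counted. Units were read over whole sites, and the arrays had a median width of 829 bp when deep and 259 bp at depth 1. Among deep stacks that were arrays over the deepest stretch or over 300 bp, the median unit was 42.5 or 36.5 bp. At depth 3 it was 21.5 bp over the whole site, with 9.20% of arrays at 61 to 120 bp. The part of site width in these differences of unit length was not tested.

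**Figure D2:**
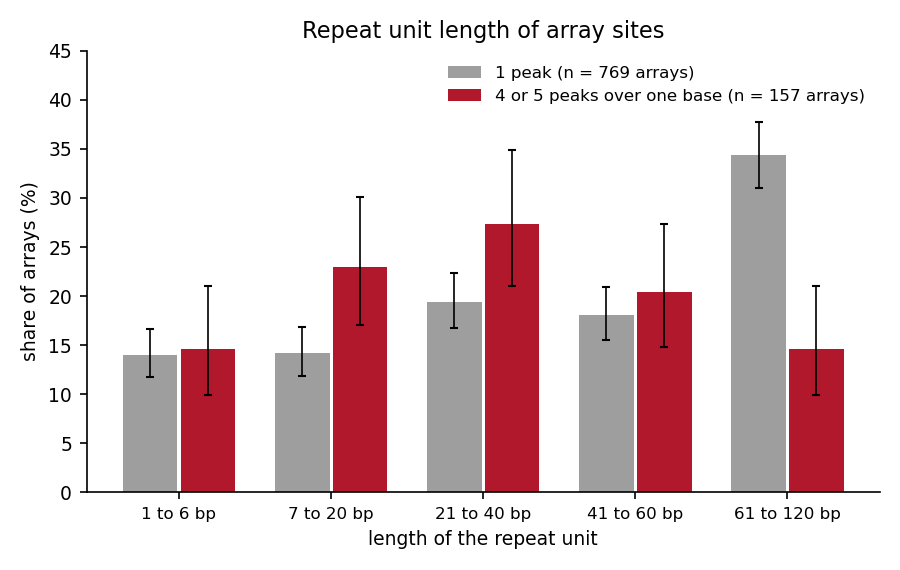
Share of array sites in percent (vertical axis) by length of the repeat unit (horizontal axis), for arrays of depth 1 in grey and of depth 4 or 5 in red, with 95% Wilson intervals as error bars. The intervals separate at 7 to 20 bp (22.9% of deep arrays against 14.2%) and at 61 to 120 bp (14.6% against 34.3%). Units were read over whole sites, which were wider at depth 4 or 5. Arrays of depth 3, not drawn, had 21.3% at 7 to 20 bp and 9.20% at 61 to 120 bp.

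Arrays varied in how alike their copies were. The match of a deep array with itself had a median of 81.4%, with an interquartile range of 75.7 to 89.9%, and at depth 1 the median was 79.2%. The 192 deep stacks that were not arrays also matched themselves well, at a median of 61.2%. Among sites that were not arrays the median was 57.7% at depth 3 and 36.5% at depth 1. The plot of self-match against strand asymmetry shows this shift.

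Some arrays shared their unit. Of the 157 arrays, 18 fell into 7 groups whose units were at least 85% identical, among units of 10 bp or more. The largest group had a 63-bp unit at 4 sites, each within 0.221 Mb of the end of its chromosome, on the long arms of chromosomes 3, 9 and 16 and the short arm of chromosome 17. The same 63 bases were found in all 4 arrays and are shown once for each, with their strand, because the letters are identical:
chr16:90116772-90116834, + strand: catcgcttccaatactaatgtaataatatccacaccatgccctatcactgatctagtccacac
chr17:117969-118031, - strand: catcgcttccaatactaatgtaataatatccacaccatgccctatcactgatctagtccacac
chr3:198168379-198168441, + strand: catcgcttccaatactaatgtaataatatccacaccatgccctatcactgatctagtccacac
chr9:138231455-138231517, + strand: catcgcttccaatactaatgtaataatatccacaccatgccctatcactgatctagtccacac

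Much of the sequence of these arrays is found elsewhere in the genome. The share of 50-base words of a site that occur nowhere outside that site was 3.09% on chromosome 16, 4.38% on chromosome 9, 17.5% on chromosome 17 and 61.9% on chromosome 3.

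Deep stacks lay near chromosome ends. Of the 349 sites, 177 were within 5 Mb of an end, or 50.7% (45.5 to 55.9%), beside 8.62% of all autosomal sites. At depth 1 the share was 6.24% (1253 of 20085 sites), 44.5 percentage points lower (39.2 to 49.7). These outer 5 Mb make up 7.0004% of the known autosomal sequence. The median distance to the nearer end was 5.30 Mb at depth 4, 4.23 Mb at depth 5, 11.05 Mb at depth 3 and 37.3 Mb at depth 1. Within 1 Mb lay 12.3% of the deep stacks and 1.24% of the depth 1 sites.

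**Figure D3:**
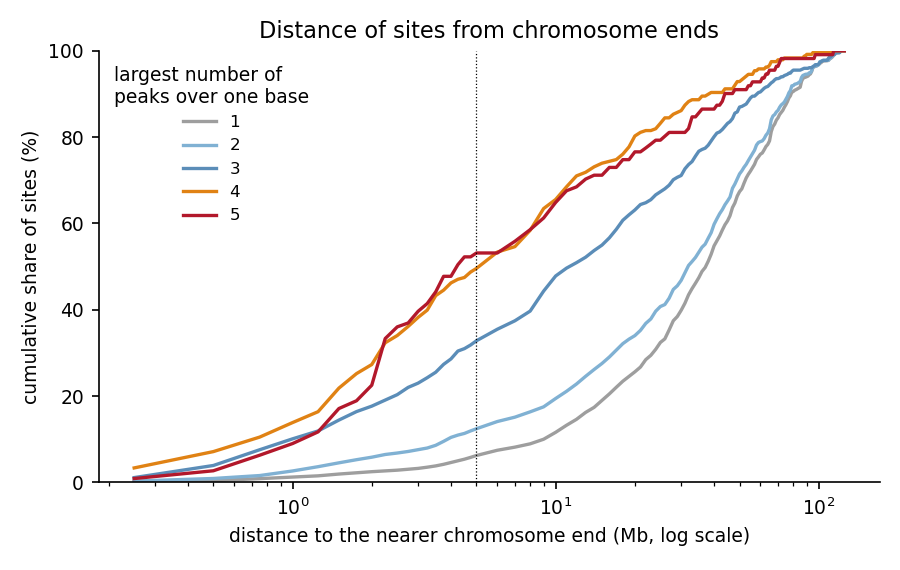
Cumulative share of sites in percent (vertical axis) against the distance to the nearer chromosome end in Mb on a log scale (horizontal axis), for each stack depth, with a dotted line at 5 Mb. At that line the curves stand at 6.24%, 12.4%, 32.8%, 49.6% and 53.2% for depths 1 to 5.

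Position near an end was seen both in arrays and in other sites. At depth 4, 54.8% of arrays (45.2 to 64.03%) and 45.5% of the other sites (37.3 to 54.0%) lay within 5 Mb. At depth 5 the shares were 52.8% (39.7 to 65.6%) and 53.4% (40.8 to 65.7%), and the intervals overlapped at both depths. Among sites that were not arrays, 47.9% of the deep stacks and 4.81% of depth 1 sites lay within 5 Mb of an end. Among arrays the shares were 54.1% (46.3 to 61.7%) and 42.0% (38.6 to 45.5%). Keeping 1 site per 100 kb left 296 deep stacks, of which 47.3% lay within 5 Mb, and 8.98% of the depth 1 sites thinned in the same way did.

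Chromosomes differed in how many deep stacks they carried. Per 100 Mb of known sequence, chromosome 19 had 37.6, chromosome 21 had 34.9, chromosome 17 had 27.7 and chromosome 16 had 25.7. Chromosome 15 had the fewest, 3.54, followed by chromosome 5 with 4.41. On chromosome 21, 6 of its 14 deep stacks lay in the group beside rRNA genes described below. Depth 1 sites per Mb were 6.76, 7.91, 7.05 and 3.64 on chromosomes 19, 21, 17 and 16, and 10.1 and 7.88 on chromosomes 15 and 5. Chromosome 2 had most deep stacks in number, 32. The share within 5 Mb of an end was higher at deep stacks than at depth 1 sites on 21 of 22 autosomes, and the exception was chromosome 15, where none of its 3 deep stacks lay there. On chromosome 19 the share was 27.3%, compared with 73.9% on chromosome 17. Arrays were a higher share of deep stacks than of depth 1 sites on all 22 autosomes.

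**Figure D4:**
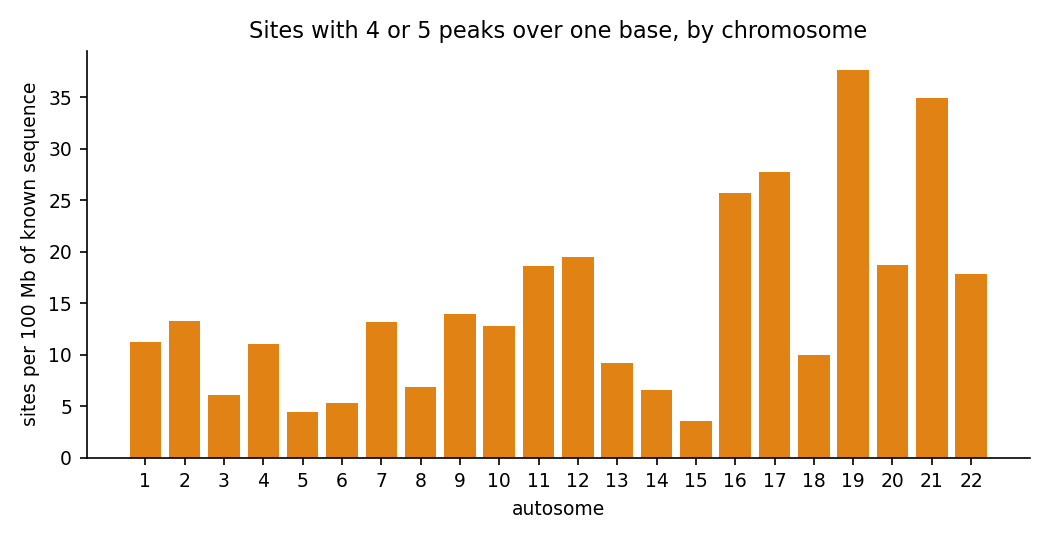
Number of sites with 4 or 5 peaks over a single base per 100 Mb of known sequence (vertical axis) for each autosome (horizontal axis). Chromosomes 19 and 21 stand highest, at 37.6 and 34.9, and chromosome 15 lowest, at 3.54. On chromosome 21, 6 of the 14 sites lay in a single group on the short arm.

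The strands of deep stacks differed in base composition. Strand asymmetry was taken as the difference between G and C on a strand as a percent of their sum, so that 0 means equal numbers and 100% means that one of them is missing. It was 50% or more at 226 of the 349 sites, or 64.8% (59.6 to 69.6%), beside 14% of all autosomal sites. At depth 1 it was 9.72%, 55.0 percentage points lower (49.9 to 59.9). On the G-richer strand the deep stacks had a median of 37.1% G and 7.09% C, and the depth 1 sites 22.7% and 15.4%. The share was 60.5% at depth 4 (54.2 to 66.5%) and 73.9% at depth 5 (65.0 to 81.1%), and at depth 3 it was 57.8%.

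Asymmetry was also frequent outside arrays. Among sites that were not arrays it reached 50% at 68.2% of the deep stacks, 55.8% of the depth 3 sites and 7.85% of the depth 1 sites. Among arrays the shares were close, 60.5% (52.7 to 67.8%) and 56.7% (53.2 to 60.2%). On all 22 autosomes asymmetric sites were a higher share of the deep stacks than of the depth 1 sites.

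**Figure D5:**
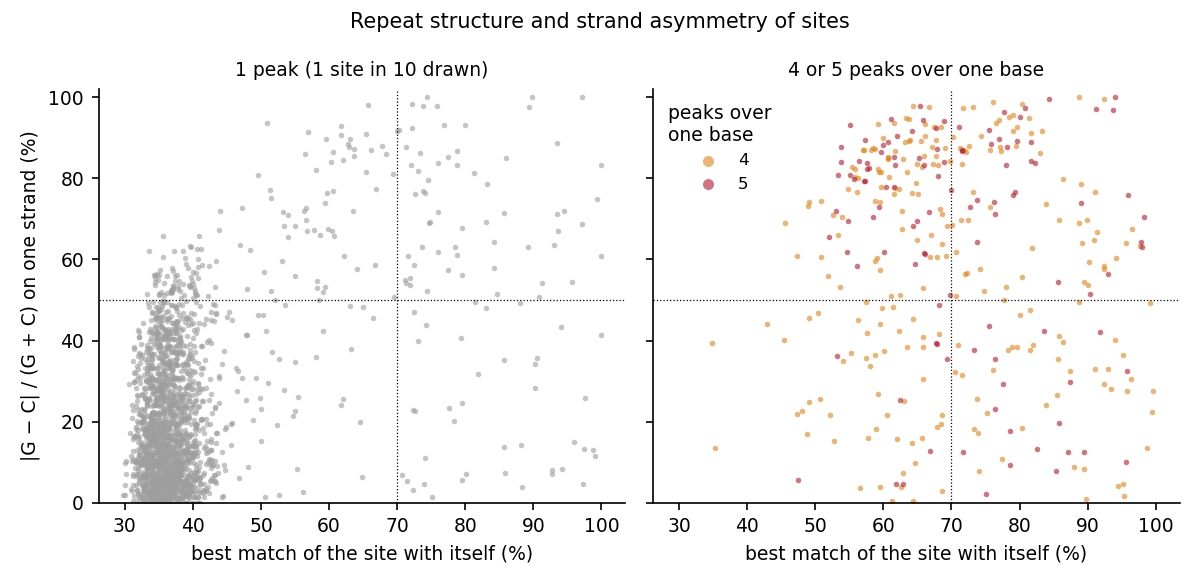
Strand asymmetry in percent (vertical axis) against the best match of the site with itself in percent (horizontal axis), each point a site, at depth 1 on the left (1 site in 10 drawn) and at depth 4 (orange) or 5 (red) on the right, with dotted lines at the limits of 70% and 50%. Depth 1 sites crowd at a median match of 36.6% and a median asymmetry of 18.1%, and the deep stacks scatter around medians of 68.1% and 66.8%.

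Perfect microsatellite tracts were less frequent. A run of 20 bp or more in which a unit of 1 to 6 bp repeats without a mismatch was found at 50 deep stacks, or 14.3% (11.04 to 18.4%), beside 4.41% of all autosomal sites and 3.05% at depth 1. At depth 3 the share was 19.8% (17.0 to 22.9%), which overlaps the interval of the deep stacks. The whole site was searched, so a wider site had more chance to hold a tract, and no share by width was computed. Tetranucleotide tracts were found at 5.73% of the deep stacks and hexanucleotide tracts at 4.30%, and dinucleotide tracts at 2.01%. At depth 1 dinucleotide tracts led, with 1.19%. Tetranucleotide tracts also led at depth 3, with 7.85%. Only 30 deep stacks, 8.60%, had neither an array in any peak, nor asymmetry of 50%, nor such a tract, beside 81.6% of all autosomal sites and 87.1% of those of depth 1. The any-peak reading enters this count too, with the same unequal number of chances, and so does the greater chance of a tract in a wider site.

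AT content was lower at the deep stacks. Its mean was 54.4% (SD 6.95 over sites), compared with 60.6% (SD 5.31) at depth 1. Sites of depth 3 lay between, nearer to the deep stacks, at 56.2% (SD 6.66). Of the motifs searched on both strands in the 300 bp around the midpoint of the deepest stretch, the G-quadruplex pattern of 4 runs of at least 3 G was present at 2.02% (0.981 to 4.10%) of the 347 deep stacks whose window had no unknown base, and at 0.851% of the depth 1 sites, a difference of 1.17 percentage points (0.120 to 3.26) that rests on 7 deep stacks. The minisatellite core motif was found at 0 of the 347 (up to 1.09%) and at 0.284% of the depth 1 sites. A pair of adjacent telomere repeats was found at 0 as well, and the PRDM9 hotspot motif at 1.73% and 1.30%. A count of 0 says only that the letters of the motif were not in these windows.

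Protein-coding genes were overlapped by 166 deep stacks, or 47.6% (42.4 to 52.8%), beside 52.9% of all autosomal sites and 52.9% of depth 1 sites. The difference from depth 1 was -5.29 percentage points, with an interval that reached almost to 0 (-10.5 to -0.00307). Kept to 1 site per 100 kb, 51.0% of the deep stacks overlapped such a gene. At depth 5 the share was 40.5% (31.9 to 49.8%) and at depth 4 it was 50.8% (44.5 to 57.1%). No annotated gene of any kind was overlapped by 40.1% of the deep stacks and 31.3% of the depth 1 sites. Sites of depth 3 were close to the deep stacks, with 41.7% overlapping no gene and 47.8% a protein-coding gene. Exons were overlapped by 19 deep stacks, 5.44%, beside 5.11% of all autosomal sites and 5.37% of depth 1 sites, a difference of 0.0769 points (-1.88 to 2.99). An overlap of 1 bp was enough, so the wider deep stacks had more chance to touch an exon. At the midpoint of the deepest stretch the share of deep stacks was 3.72%, a count not made at depth 1.

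Most genic sites of either kind lay outside exons: 43.3% of all deep stacks and 49.1% of all depth 1 sites overlapped a protein-coding gene but none of its exons. The share of gene sequence that is exon was not computed. Counted for each pair of site and gene in the principal transcript of the gene, 154 of 173 pairs were in an intron, and 36 of these were in the first intron, a count not made at depth 1. The genes numbered 154, with a median length of 134 kb, and 17 of them held more than one site. The G-richer strand was the sense strand of the gene at 91 of 166 sites, 54.8% (47.2 to 62.2%), and at depth 1 this share was 55.3%. Among sites with asymmetry of 50% or more it was 53.1% (43.2 to 62.8%) at deep stacks and 64.8% (61.7 to 67.9%) at depth 1.

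Genes with several deep stacks are described by name. SMYD3, a lysine methyltransferase gene of 758 kb, held 3. The array in its first intron had depth 5, was 1244 bp wide and repeated a 52-bp unit with a match of 98.3%. A site in its intron 5 had a 32-bp unit with a match of 78.9%, and the other site there was no array, at 52.1%. The unit in the first intron is AT-rich, at 63.7% A and T over the site:
SMYD3, chr1:246484180-246484231, + strand: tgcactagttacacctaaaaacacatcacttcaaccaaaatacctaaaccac

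TMEM242, which encodes a mitochondrial membrane protein needed for ATP synthase assembly, held 3 arrays within intron 3, from 157310421 to 157314391 on chromosome 6. All 3 repeated a 34-bp unit, with matches of 87.4%, 85.5% and 83.8% and depths of 5, 4 and 4. Copies chosen for their likeness to the upper one are shown on the + strand, with capitals where they differ from it:
chr6:157310738-157310771: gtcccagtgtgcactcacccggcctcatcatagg
chr6:157313034-157313067: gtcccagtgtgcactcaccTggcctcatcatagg
chr6:157314118-157314151: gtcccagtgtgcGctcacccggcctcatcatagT

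A forward primer that the study designed to detect rearrangements in this gene, atcatagtgtcccagtgtgc, matched the 3 sites 5, 7 and 3 times. Primers had been placed beside rearrangement breakpoints at BrdU peaks, so their presence in these sites is no independent evidence about them. In ARHGAP20 a reverse primer of the study, gcatatactctatcactgc, matched the array in intron 4 exactly 24 times. That site was 1307 bp wide, held 7 peaks at depth 4 and repeated the 17-bp unit gtgatagagtatatgca. In CMIP, an adaptor protein gene, the array in the first intron repeated a 71-bp unit at a match of 72.1% and an asymmetry of 86.4%. One of its primers matched once, and the others 3 and 10 times. In the first intron of DIP2C 3 primers matched once each, and that site was no array, with a self-match of 45.4%. DIP2C held another deep stack in intron 3, an array with a 57-bp unit and a match of 95.7%.

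CACNA1C, the gene of the pore-forming subunit of an L-type calcium channel, held arrays with units of 31 bp in intron 3 and 41 bp in intron 9. They matched themselves at 98.8% and 99.1%, and only 5.52% and 15.2% of their 50-base words were found nowhere outside the site. GMDS, which encodes an enzyme of GDP-fucose synthesis, held arrays with units of 80 bp in the first intron, with 9 peaks, and 30 bp in intron 7. PCBP3, an RNA-binding protein gene near the end of chromosome 21, held an array of a 66-bp unit at depth 5 and a second site at 65.9%, below the array limit. SCNN1D, the gene of an epithelial sodium channel subunit, held a pair of sites in intron 12 with a shared 18-bp unit. These were poor in A and T, at 30.9% and 30.5%, whereas the deep stacks had a median of 54.5%.

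Other genes held sites that were not arrays, many of them asymmetric. PRKAR1B, a regulatory subunit gene of protein kinase A, held a pair in intron 4 with asymmetries of 94.5% and 81.6%, the former richer in G on the sense strand and the latter richer in C. FAM20C, which encodes a kinase of secreted proteins, held a pair in intron 3 at 82.4% and 89.1%. RAB40B, a small GTPase gene, held a pair in the first intron 10 bp apart, at 73.1% and 71.9%. ABCA13, an ABC transporter gene, and ARHGEF18 each held 1 site that was an array and 1 that was not. The same held for EXD3, RPH3AL and ZNF407, whose sites without an array had asymmetries of 4.56%, 42.4% and 67.5%. At GAK, a kinase gene of clathrin uncoating, neither site was an array and asymmetries were 25.6% and 3.70%. An unnamed protein-coding gene on chromosome 4, ENSG00000272297, held a pair of arrays with a 46-bp unit.

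Exons of protein-coding genes were overlapped by 15 deep stacks. In 3 of them the overlap was with coding sequence. The array in exon 12 of IGFN1, a muscle protein gene with immunoglobulin and fibronectin domains, was 2195 bp wide, held 9 peaks and matched itself at 91.4%. The array in exon 2 of MUC3A, a membrane mucin gene, was 1509 bp wide and matched itself at 81.9%. The third lay at exon 30 of TNS1, a gene of focal adhesions, and repeated a 4-bp unit at 73.2%. Untranslated parts of the last exon were overlapped in ITGB1BP1, whose array had a 56-bp unit and a match of 94.5%, and in MLYCD, the malonyl-CoA decarboxylase gene. The MLYCD site was the only one of depth 5 among them and had no repeat, at a match of 47.5% and an asymmetry of 5.67%. In GEMIN4, a gene of the SMN complex, another transcript's untranslated exon was overlapped. The remaining sites overlapped exons of transcripts other than the principal one, in ADAP1, ASGR1, CABP1, DHRS12, GAK, MICAL3, PRDM15, SLC17A7 and TRPM4. The ADAP1 site had no C on the + strand and so an asymmetry of 100%, and MICAL3 reached 99.5%.

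Among the 10 sites of depth 5 with the most peaks, 3 lay in a protein-coding gene. The site in SPPL2B, an intramembrane protease gene, held 10 peaks over 3423 bp. Those in CAMTA1, a transcription activator gene, and TSNARE1, a SNARE-domain gene, held 8 each, with asymmetries of 92.3% and 96.3%.

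Of the gene lists written for this work from general knowledge, 3 in number, the counts were set beside those of all protein-coding genes, of which 154 of 19103 held a deep stack (0.806%). A depth 1 site was held by 19.3% of all protein-coding genes. Of 20 genes of common fragile sites 0 held a deep stack, a number too small to set apart from that background, and 16 held a depth 1 site. A longer gene has more room for a site, and gene length was not taken into account in any of these counts. Of 23 genes known for a variable number tandem repeat 1 held a deep stack, CACNA1C, and 5 held a depth 1 site. A site anywhere in the gene counted, and whether any of them lay at the known repeat was not examined. Of 17 mucin genes 1 held a deep stack, MUC3A, and 6 held a depth 1 site.

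Deep stacks lay further from other sites than depth 1 sites did, but near each other in places. Another site of any depth lay within 10 kb of 35.8% of the deep stacks (30.97 to 40.98%) and of 62.6% of the depth 1 sites, 26.8 percentage points more (21.6 to 31.7). The median distance to the nearest site was 26.6 kb at deep stacks and 4.95 kb at depth 1. Sites of depth 3 were nearer to the deep stacks in this, with 42.9% (39.3 to 46.6%) within 10 kb of another site, an overlapping interval. Their median distance was 15.1 kb. Another deep stack lay within 10 kb of 47 of the 349 and within 100 kb of 87.

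The densest group was on chromosome 11, where 14 deep stacks with 94 peaks lay in the third Mb. Of these, 13 fell within 24.4 kb, from 2041792 to 2066236, between MRPL23 and IGF2, the gene of an imprinted growth factor. None overlapped an annotated gene. Depth was 5 at 8 of them, and the widest, at 2975 bp, held 19 peaks. All 14 were richer in C than in G on the + strand, with asymmetries of 51.3 to 84.2%. None was an array over its whole length, and all their 50-base words were found nowhere outside the site they came from. They were still partly repetitive: the unit was 7 bp at all 13 sites between MRPL23 and IGF2, with self-matches of 50.8 to 61.7%. The median self-match of depth 1 sites that were not arrays was 36.5%. Without this Mb, 48.7% of the remaining deep stacks lay within 5 Mb of an end.

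The group with most peaks per site was on chromosome 2, between COPS7B and NPPC. Here 5 sites held 62 peaks over 26.8 kb, from 231822803 to 231849577, and the widest was 9341 bp with 23 peaks. The unit was 89 or 90 bp at all 5, and the best match at any offset was 48.8 to 65.6% over the whole sites, below the array limit. Asymmetry was low, at 14.8 to 17.0%. Between 15.7% and 47.7% of their 50-base words were found nowhere outside the site itself.

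Ribosomal RNA genes lay beside another group. On the short arm of chromosome 21, 6 deep stacks with 27 peaks lay between 8204094 and 8465546, and 5 of them had an annotated 5.8S rRNA gene within 20 kb. Between 0 and 18.0% of their words were their own. On chromosome 1 a site of 307 bp at 228622238 had 15 annotated 5S rRNA genes within 20 kb and no word of its own. In all, 30 deep stacks, or 8.60%, had fewer than 50% of words of their own, and 16 of the 30 were arrays. The share was 8.70% at depth 3 and 4.48% at depth 1. How many copies of such sequences BJ-hTERT cells carry was not measured here, and its part in the stacks was not tested.

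How often short words of the sites recur in the reference differed between the groups. The median share of 50-base words found once in the genome was 88.8% at deep stacks and 100% at depth 1, and 59.6% at the deep arrays. Words found only within the site itself, which include those repeated inside an array, had a median of 100% at both. Unknown bases of the assembly lay within 50 kb of 4.30% of the deep stacks, 6.59% of the depth 3 sites and 1.26% of the depth 1 sites. Reads were not analysed, and the part of such recurrence in the depth of a stack was not tested.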

How the data were processed

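The deposited list held the positions, in bp, of BrdU peaks that the authors called with MACS2 2.1.0 (limits of 8 and 30, p threshold of 1e-05) against input DNA on hg38. The study's methods name Bowtie2 2.3.4.2 and the submitters' processing notes 2.3.3.1, and which one aligned the BrdU reads is not given in the sources used here. It has no count, signal or score, so no test across samples was possible and precision is given by counting intervals alone. File starts were taken as 0-based and 1 was added for printing. The 349 members, the array definition, the asymmetry measure, the gene lists and the named genes were chosen with earlier results of these data known. Named genes were those with 2 or more member sites, an exon in a member, a site of depth 5 among the 10 with the most peaks, a study primer or a mention in the paper. The unit of an array was the smallest offset within 2 points of the best match. Sequence came from hg38, genes from GENCODE 44. All genes of the 3 lists were found in it. Words of 50 and 36 bases were counted on both strands. Intervals were Wilson or Newcombe, at 95%. The analysis used Python 3.11.15 with statsmodels 0.14.6, numba 0.67.0, edlib 1.3.9.post1, scipy 1.17.1, pandas 2.3.3, matplotlib 3.10.9 and numpy 2.4.6, and merging, array calls and word counts were tested on simulated data. The simulated arrays held no units of 1 to 6 bp. Random sequence was drawn with equal base frequencies, so array calls in sequence of skewed composition were not tested. Alternatives were other limits, offsets, windows and distances, and members of one depth. Chromosomes X and Y were left out of the comparisons.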

Additional observations from a re-analysis of the deposited data

Results flagged for a closer look

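Outside the autosomes, 9 of the 347 sites on chromosomes X and Y also had a depth of 4 or 5, which the comparisons did not use. All 9 lay within 5 Mb of a chromosome end, 8 had a strand asymmetry of 50% or more, and 1 was an array.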

How the results depend on the processing

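Of 58 alternatives, 35 left a value within its interval, or a count within 1.5 times. Members of depth 5 alone numbered 111, with asymmetry of 50% at 73.9% and a protein-coding gene at 40.5%. The share of arrays was 75.6% at a match of 60%, 24.4% at 80%, 39.3% with offsets to 60 bp, 59.4% over the deepest stretch (340 sites long enough), 57.3% over 300 bp, 67.0% over any single peak, 38.2% at widths of 300 to 500 bp and 50.8% at 1000 bp or more. The median unit was 22.5 bp at 60%, 39 bp at 80%, 42.5 bp in the deepest stretch and 36.5 bp in 300 bp. Within 2 Mb of an end lay 25.8% and within 10 Mb 65.3%. Genes of any kind were overlapped by 59.9%. Median width was 243 bp for the deepest stretch and 513.8 bp for the mean peak. Words of 36 bases gave 73.1% in place of 88.8%. Asymmetry was reached by 81.1% at a limit of 30% and by 46.1% at 70%. The any-peak reading, the limits on asymmetry, its split by arrays and depth, and the omission of the densest Mb were chosen after seeing the data. In the 10 changes of limit, offset, window or distance that were also run at depth 1, the deep stacks kept the higher share. The causes of these moves were not tested, and read depth is unknown. No paired analysis was possible because no peak carries a sample or repeat label.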
